A study of Mus musculus with 7 samples.

Results

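The regulatory domain of Sonic hedgehog (Shh) on mouse chromosome 5 was surveyed for open chromatin, from 100 kb beyond the Shh gene body on its side away from Lmbr1 to the far end of Lmbr1. The interval runs from 28356840 to 29378421 in GRCm38 (mm10) and spans 1021.58 kb. Its members were chosen by position alone, as every peak of the 7 deposited ATAC-seq lists that touches the interval. Peaks of different libraries that share at least 1 bp were joined into sites, which gave 71 sites out of 130788 merged regions on the placed chromosomes. ATAC-seq tags DNA that a transposase can reach, so a peak marks accessible chromatin, and the Omni-ATAC variant was used here.

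Of the 7 mouse libraries, 2 came from ectoderm of the first pharyngeal arches at embryonic day 11.5 (E11.5), peeled from the mesenchyme after Dispase II treatment. Another 2 came from Sox2-positive cells of the lower incisor at postnatal day 2 (P2), dissociated from the labial cervical loop and sorted by a green fluorescent reporter that the endogenous Sox2 promoter drives, called Sox2-positive or sorted cells here. Whole P2 teeth gave the other 3 libraries, 1 from lower incisors, 1 from lower first molars and 1 from upper first molars, so these have no replicate check. Whole teeth hold epithelium, mesenchyme and other cells together, and the sort keeps whatever cells carry the reporter. No strain, and no number of animals per library, was given in the sources used here. Nothing says that replicates came from separate animals, so their spread may be technical. The lists held from 39017 to 82461 peaks, and the sequencing depth behind them is unknown. The main counts are therefore given for the full lists and again for the 38000 autosomal peaks of each list with the highest −log10 p, called equal list length below.

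Shh encodes a secreted signal that binds the receptor Patched and releases Smoothened, which acts through the GLI transcription factors. In the tooth it is made by the epithelium, where it acts on growth and shape of the tooth germ, and in the embryonic face it comes from oral and pharyngeal epithelium. Shh is a textbook case of control from a distance: its enhancers are spread over the gene desert upstream of it and into the neighbouring genes, and an intron of Lmbr1 holds the enhancer for the limb bud. Rnf32, which encodes a RING-finger protein, and Lmbr1, which encodes a membrane protein, lie at the far end of the desert. The files mark no enhancer by name, and no site was matched to a named element.

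The start sites of Rnf32 and Lmbr1 and a start site deep in the desert are shown as examples of sequence. Sequence was at hand only around listed start sites, so these stretches do not stand for the other sites of the domain. Each stretch below is the 250 bases before a start site, 5′ to 3′ along the gene, from RefSeq (GRCm38.p6), with CG dinucleotides in capitals. The first lies at chr5:29195743-29195992 on the plus strand, the second at chr5:29378391-29378640 on the minus strand and the third at chr5:28903524-28903773 on the minus strand. The third start lies inside its gene, Gm35688, which spans 28890378 to 29004724.
Rnf32: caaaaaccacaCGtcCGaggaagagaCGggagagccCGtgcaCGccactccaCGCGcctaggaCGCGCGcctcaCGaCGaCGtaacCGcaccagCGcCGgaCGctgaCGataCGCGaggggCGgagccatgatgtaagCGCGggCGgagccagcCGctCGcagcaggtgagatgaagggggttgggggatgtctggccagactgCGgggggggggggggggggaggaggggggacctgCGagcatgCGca
Lmbr1: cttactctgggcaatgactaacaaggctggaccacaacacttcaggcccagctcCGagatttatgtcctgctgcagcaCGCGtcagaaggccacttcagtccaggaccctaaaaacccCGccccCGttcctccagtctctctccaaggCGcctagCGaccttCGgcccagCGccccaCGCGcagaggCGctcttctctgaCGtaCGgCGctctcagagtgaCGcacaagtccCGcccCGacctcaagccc
Gm35688: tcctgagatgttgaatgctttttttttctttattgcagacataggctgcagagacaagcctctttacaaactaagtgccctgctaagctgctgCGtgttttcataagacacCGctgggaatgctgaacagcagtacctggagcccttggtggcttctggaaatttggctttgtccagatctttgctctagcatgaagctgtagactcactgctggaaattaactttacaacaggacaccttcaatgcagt

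The Rnf32 stretch held 29 CG dinucleotides, more than in 93.2% of the 32851 promoters of the same table. The Lmbr1 stretch held 18, more than in 78.3% of them, and both Rnf32 and Lmbr1 had a peak over this sequence in all 7 libraries. The stretch of Gm35688, a long noncoding RNA gene, held 2, with a median of 6 over all promoters. It lies inside a joined site that had a peak in both ectoderm libraries and Sox2-positive replicate 1. Whether each of these peaks covers the stretch itself was not examined. The GC box GGGCGG, searched on both strands, occurred 2 times each in the Rnf32 and Lmbr1 stretches and not in that of Gm35688; 32.7% of all promoters held it. None of the 3 stretches held the CCAAT box (33.8% of all promoters do), the TATA box as TATAAA (12.4%), the core that SOX proteins bind as ACAAT (27.7%) or the core that PITX proteins bind as TAATCC (6.25%), each searched on both strands.

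**Figure D1:**
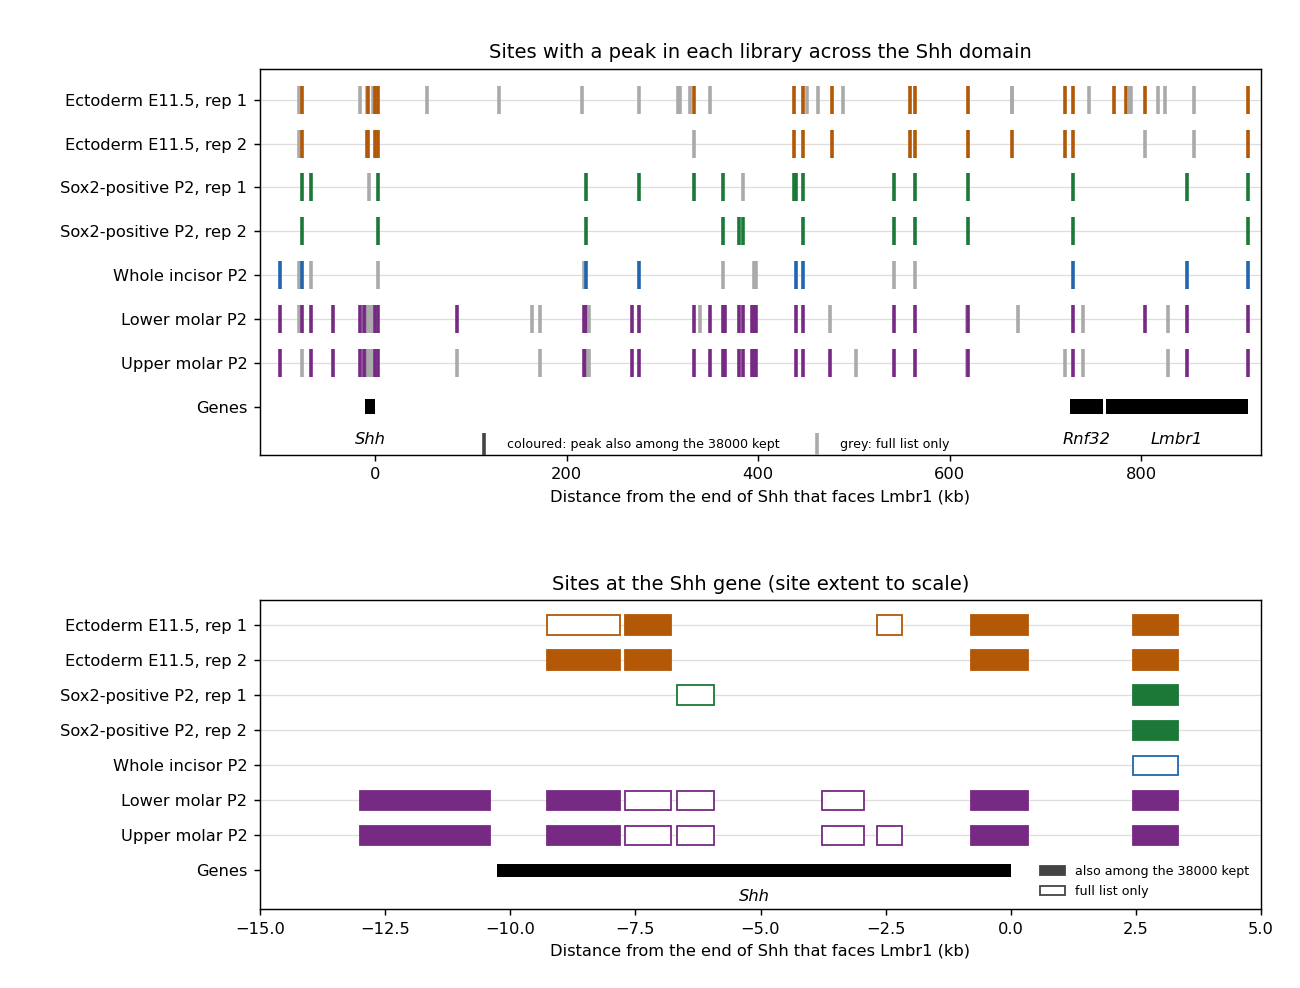
Sites with a peak in each library, placed by distance in kb from the end of Shh that faces Lmbr1; coloured marks and filled boxes are also present at equal list length, and grey marks or hollow boxes are in the full list only. The upper panel shows all 71 sites as ticks with the 3 genes as black bars, and the lower panel shows the extent of the sites at Shh, where both ectoderm and both molar libraries have sites in the gene and the incisor and Sox2-positive replicate 2 have none.

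The molar libraries had the most peaks in the domain. The lower molar had 45 and the upper molar 44, the incisor 18, the ectoderm replicates 40 and 19, and the Sox2-positive replicates 18 and 12. Per 10000 listed peaks these were 6.43 and 6.44 in the molars, 2.86 in the incisor, 4.85 and 3.74 in ectoderm, and 4.22 and 3.08 for the sorted cells. At equal list length the molars had 32 and 30 peaks, the incisor 9, ectoderm 17 and 15, and the sorted cells 16 and 12. Both molars thus stood above the other 5 libraries on each of these scales, and the incisor was lowest once list length was taken into account. In libraries made from mixed tissue, fewer cells with an accessible site and less access per cell cannot be told apart.

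Ectoderm had more peaks than the sorted cells in the full lists, and whether the replicates overlapped depended on how list length was handled. The full lists gave 40 and 19 peaks against 18 and 12, a mean of 29.5 ± 14.8 against 15 ± 4.24 (SD, n = 2 each), without overlap. Lists of equal length gave 17 and 15 against 16 and 12, or 16 ± 1.41 against 14 ± 2.83, and these overlapped. Per 10000 listed peaks the means were 4.30 ± 0.785 and 3.65 ± 0.813, a difference of 0.646 with overlapping replicates (exact permutation test, two-sided p = 0.667, n = 2 each). The smallest p this design allows is 0.333, so no difference could pass a threshold of 0.05. The difference was 1.05 with 38000 peaks per list taken by signal and 1.60 with the stronger 50% of each list (exact permutation p = 0.333 each). It was 0.0906 without ectoderm replicate 1, 1.20 without ectoderm replicate 2, 1.22 without Sox2-positive replicate 1 and 0.0710 without Sox2-positive replicate 2.

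**Figure D2:**
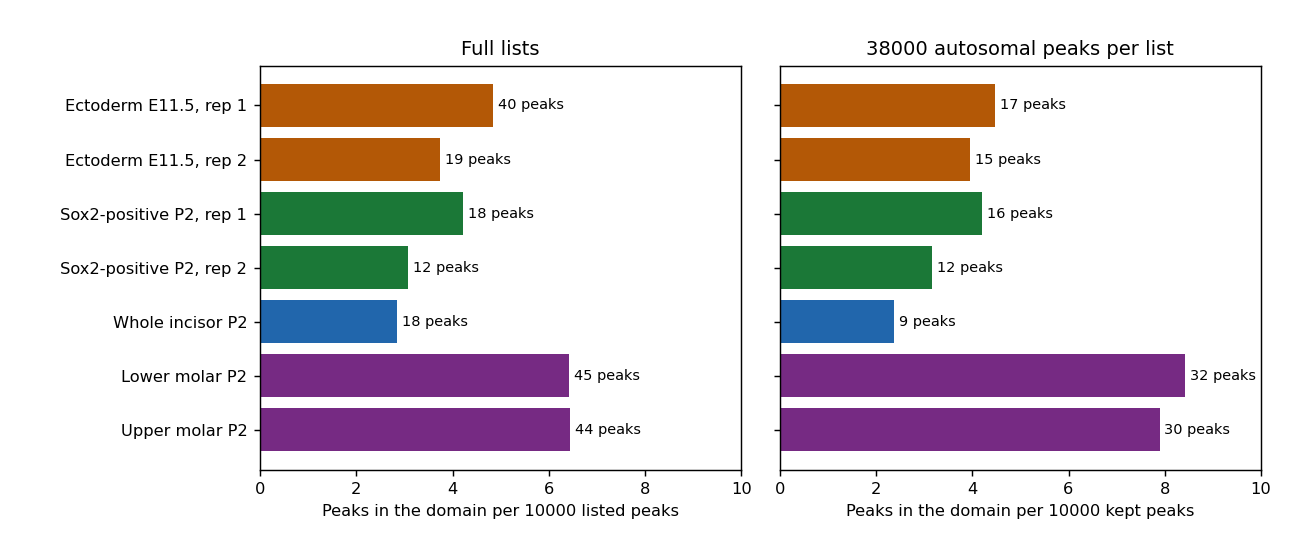
Peaks in the Shh domain per 10000 peaks of each library, for the full lists (left) and for 38000 autosomal peaks per list (right), with the number of peaks beside each bar. Both molar bars, at 6.43 and 6.44 on the left, are longer than those of the other 5 libraries in both panels.

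At Shh itself, ectoderm and molars had peaks that Sox2-positive cells and incisor lacked. The gene body held 6 sites: the upper molar had a peak at 6 of them, the lower molar at 5, the ectoderm replicates at 4 and 3, Sox2-positive replicate 1 at 1, and Sox2-positive replicate 2 and the incisor at 0. The site over the end of the gene that faces Lmbr1, chr5:28466297-28467453, had a summit 0.252 and 0.0370 kb from that end in ectoderm, 0.0370 kb in the lower molar and 0.0360 kb in the upper molar. Its signal, an area that the authors' peak caller assigns and that is not scaled between libraries, was 980 and 459 in ectoderm, 758 in the lower molar and 852 in the upper molar. These peaks ranked above 65.2% and 38.2% of the ectoderm lists, 61.1% of the lower molar list and 63.9% of the upper molar list. All 4 stayed at equal list length, and in the other 3 libraries the nearest summit was 2.86 to 2.88 kb away.

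That nearest summit belongs to a site 2.89 kb upstream of Shh, chr5:28469549-28470440, which had a peak in all 7 libraries. Its percentile within the list was 76.1 and 54.6 in ectoderm, 13.0 and 30.3 in the sorted cells, 44.1 in the incisor, 81.9 in the lower molar and 86.4 in the upper molar. The incisor peak there was lost at equal list length and the other 6 were kept. The site lies inside the long noncoding RNA gene 9530036O11Rik, which starts inside the end of Shh that faces Lmbr1 and reaches into the desert. The site over that end of Shh thus also covers the start of 9530036O11Rik, and the peaks there cannot be assigned to one gene or the other.

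Within the gene body, the sites at chr5:28457829-28459290 and chr5:28459394-28460314 repeated the pattern of the gene end, with peaks in the 4 ectoderm and molar lists and in no other. The former ranked at percentile 60.2 and 53.7 in ectoderm, 67.0 in the lower molar and 85.5 in the upper molar. The latter ranked at 63.9 and 40.4 in ectoderm, 32.9 in the lower molar and 44.1 in the upper molar. These 3 sites were the only ones of the 71 with that pattern (4.23%), against 2.36% of all merged regions. At equal list length 1 of 41 sites had it (2.44%), the gene end, against 1.2%, because the former then lacked ectoderm replicate 1 and the latter both molars. Of the other 3 sites in the gene, chr5:28460436-28461167 and chr5:28463336-28464170 were found in both molars, the former also at percentile 8.21 in Sox2-positive replicate 1, and chr5:28464423-28464935 in ectoderm replicate 1 and the upper molar. None of these 3 was kept in any library at equal list length.

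On the far side of the gene, the molars had a peak that no other library had. The site at chr5:28454105-28456697, centred at −1.44 kb (distances on the side away from Lmbr1 are negative), is 2593 bp wide, the widest of the 71. It ranked at percentile 89.5 in the lower molar, with a signal of 2262, and at 96.0 in the upper molar, with a signal of 3520. The summits lay 0.896 and 0.903 kb from the gene, and both peaks stayed at equal list length. In the rest of the 100 kb beyond Shh there were 6 further sites, 4 of them inside Rbm33, among which chr5:28390070-28390794 had a peak in all 7 libraries.

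The desert between Shh and Rnf32, 725.643 kb long, held 44 of the 71 sites. Each molar had 27 of them, the ectoderm replicates 22 and 10, the Sox2-positive replicates 12 and 9, and the incisor 11. At equal list length the molars had 20 each, ectoderm 9 and 9, Sox2-positive cells 11 and 9, and the incisor 4. Without the genes and the flank, the mean of peaks per 10000 was higher in Sox2-positive cells than in ectoderm, the reverse of the whole domain. The difference was −0.243 (ectoderm minus Sox2-positive, exact permutation test, two-sided p = 0.667, n = 2 each).

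The desert sites of both ectoderm replicates were mostly far from Shh and those of both molars mostly nearer to it, with 5 sites common to all 4 lists. Of the 10 desert sites that both ectoderm replicates had, 8 lay more than 400 kb from Shh, and of the 24 with a peak in both molars, 17 lay nearer than 400 kb. Ectoderm replicate 1 taken alone had 10 desert sites nearer than 400 kb and 12 beyond. At equal list length the former shares became 7 of 8 for ectoderm and 14 of 19 for the molars. The dividing point was chosen after the values were seen, in a stretch without sites between 398 and 437 kb, and 26 desert sites lie before it and 18 after it. No test was made of this difference.

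A cluster of 7 sites between 363 and 398 kb from Shh, chr5:28829816-28865462, had a peak at every site in both molars and at none in either ectoderm library. Sox2-positive replicate 1 had a peak at 2 of them, replicate 2 at 3 and the incisor at 3. At equal list length both molars kept all 7, Sox2-positive cells had 1 and 3, and the incisor none. The cluster was singled out after its values were seen. Its site with the highest molar ranks, chr5:28847166-28848184, lies in the long noncoding RNA gene Gm42243 and ranked at percentile 90.7 in the lower molar, 92.3 in the upper molar and 33.9 in Sox2-positive replicate 2.

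Sites with a peak in both molars and not in the incisor were the largest class examined. There were 23 of 71 (32.4%), against 11.9% of all merged regions, and 21 of 41 (51.2%) against 10.8% at equal list length. Of these, 13 of 71 (18.3%) had a peak in no other library, against 6.26% of all regions, and 10 of 41 (24.4%) against 4.83% at equal list length. The 23 sites comprised 13 in the desert, 5 in Shh, 3 beyond it, 1 in Rnf32 and 1 in Lmbr1. With either molar left out, the other molar had 27 sites without the incisor. Besides the site on the far side of Shh, those with the highest mean percentile over all libraries that have them were chr5:28831947-28832938, at percentile 84.0 in the lower and 81.3 in the upper molar, and chr5:28735035-28735999, at 66.1 and 80.9. A weak peak in another library lowers that mean, and chr5:28847166-28848184 in the cluster ranked higher than either in both molars.

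The reverse class was empty. No site had a peak in the incisor and in neither molar, 0 of 71 against 9.2% of all merged regions, and 0 of 41 against 12.2% at equal list length. Every one of the 18 incisor sites was also in the lower molar list (100%, with 77.1% over all regions) and 17 were in the upper molar list (94.4%, with 73.2%). In the other direction, 18 of 45 lower molar sites (40%, with 70% over all regions) and 17 of 44 upper molar sites (38.6%, with 67.8%) were in the incisor list. Cut to equal length, the lower molar list held 9 of 9 incisor sites (100%, with 71.4% over all regions). The upper molar list held 8 of 9 (88.9%, with 69.6%). The incisor list then held 9 of 32 lower molar sites (28.1%, with 71.6%) and 8 of 30 upper molar sites (26.7%, with 69.7%). At the 17 sites in all 3 whole-tooth lists, the peak ranked higher in both molar lists than in the incisor list at 17 of 17, against 50.8% of such regions genome-wide. Their median percentile was 83.8 in the lower molar, 86.4 in the upper molar and 44.1 in the incisor.

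Fewer epithelial marker genes had a peak at their start in the incisor list than in either molar list. Of 11 such genes, 7 had a peak summit within 1 kb of a start in the incisor and 10 in each molar, where 59.3%, 60.3% and 60.4% of all protein-coding genes had one. With lists of equal length 5 of them had one, against 8 and 7, with 52.5%, 52.6% and 52.6% of all genes. Krt18, Epcam and Grhl3 were the genes with a peak in both molars and not in the incisor. Krt14, Krt5 and Cdh1 had a peak in all 7 libraries. Trp63 had none, but only the outer ends of that gene were searched, so a peak at a start inside it would be missed. Of 9 mesenchymal genes, 8 had such a peak in the incisor and 7 and 8 in the molars, and 8 against 6 and 6 at equal list length. The part of tissue makeup in the domain's difference between incisor and molars was not tested.

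**Figure D3:**
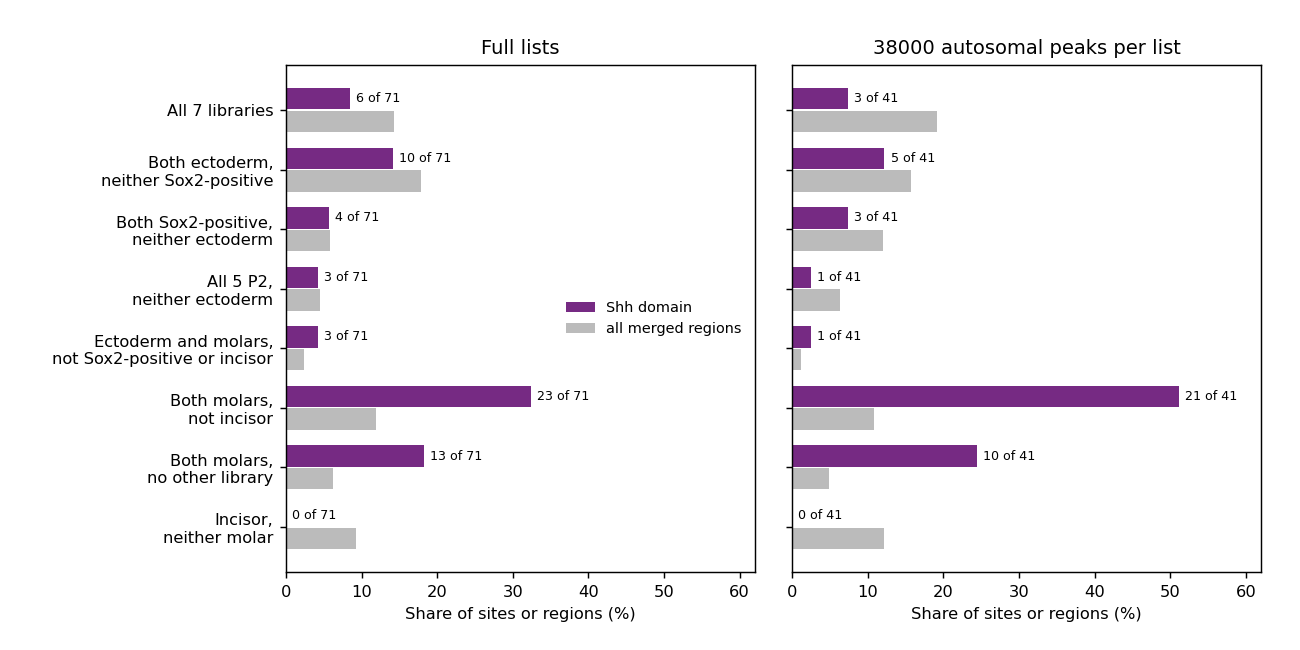
Share of sites in each pattern of libraries, for the 71 sites of the Shh domain with full lists (left) and the 41 at equal list length (right), purple, and for all merged regions, grey; numbers give the sites. Sites of both molars without the incisor make up 32.4% and 51.2% of the domain, and sites of the incisor without the molars 0 of 71 and 0 of 41.

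Sites found in ectoderm and not in Sox2-positive cells were about as frequent as elsewhere. Present in both ectoderm replicates and in neither Sox2-positive replicate were 10 of 71 sites (14.1%), against 17.9% of all merged regions, and 5 of 41 (12.2%) against 15.7% at equal list length. The count was 10 without ectoderm replicate 1 and 30 without ectoderm replicate 2, when the longer list stood for the group. Ectoderm replicate 1 had 17 sites that no other library had (23.9%, with 18.4% over all regions), and 2 of 41 at equal list length (4.88%, with 4.95%). Those 17 had a median percentile of 32.8. All 19 sites of replicate 2 were also in replicate 1 (100%, with 98.4% over all regions). Replicate 2 held 19 of the 40 sites of replicate 1 (47.5%, with 60.2% over all regions).

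Besides the site in Shh at chr5:28457829-28459290, the sites of this pattern with the highest mean percentile, taken over every library that has them, lay 477 and 721 kb from the gene. In ectoderm alone the site in Shh ranked below both. The site at chr5:28943104-28944389, 477 kb away inside Gm35688, ranked at percentile 86.1 and 66.4 in the ectoderm replicates and had no peak in any P2 library. The site at chr5:29186782-29188807, 721 kb away and just before Rnf32, ranked at 93.8 and 78.9 and had in P2 libraries only a peak at percentile 18.1 in the upper molar, lost at equal list length. A site over the internal Gm35688 start shown above, chr5:28903392-28904772, ranked at 92.7 and 68.9 in ectoderm. It ranked at 13.1 in Sox2-positive replicate 1 and had no peak in Sox2-positive replicate 2 or in the whole teeth. That site is 437 kb from Shh, and its neighbour at 439 kb, chr5:28906168-28906913, had no peak in ectoderm and percentiles of 33.3 in Sox2-positive replicate 1, 80.5 in the incisor, 85.9 in the lower molar and 83.7 in the upper molar. This pair was singled out after its values were seen.

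Sites of the 2 ectoderm replicates and no other library numbered 4 of 71 (5.63%, with 11.8% over all regions) and 4 of 41 at equal list length (9.76%, with 12.8%). Those of the full lists lie between 477 and 855 kb from Shh, 3 in the desert and 1 in Lmbr1. Those at equal list length were chr5:28459407-28460276 inside Shh and the desert sites 477, 558 and 721 kb away.

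Sites of Sox2-positive cells without ectoderm were about as frequent as over all regions in the full lists. There were 4 of 71, all in the desert, with a peak in both replicates and in neither ectoderm library (5.63%, with 5.85% over all regions) and 3 of 41 at equal list length (7.32%, with 12%). The count was 8 without Sox2-positive replicate 2 and 5 without replicate 1. All 4 were also in both molars. Of these, 3 were in all 5 P2 libraries, which is 4.23% of sites with 4.56% over all regions, and 1 of 41 at equal list length (2.44%, with 6.29%).

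These 3 P2 sites ranked highest in the molars. At chr5:28829816-28830614, 363 kb from Shh, the percentile was 70.5 and 68.4 in the sorted cells, 12.1 in the incisor, 83.2 in the lower molar and 87.9 in the upper molar. At chr5:29008446-29009391, 542 kb away and over the first part of the noncoding gene Gm35881, it was 49.9 and 32.9 in the sorted cells, 33.1 in the incisor, 85.8 in the lower molar and 90.1 in the upper molar. At chr5:28686327-28687591, 220 kb away, it was 42.2 and 15.4 in the sorted cells, 52.1 in the incisor, 89.7 in the lower molar and 92.3 in the upper molar. The incisor kept only the last of them at equal list length.

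Nearly every Sox2-positive site was a molar site. The lower molar list and the upper molar list each held 17 of the 18 sites of replicate 1 (94.4%, with 87.7% and 86.9% over all regions) and all 12 sites of replicate 2 (100%, with 86.2% and 84.5%). The incisor, the organ from which the cells were sorted, held 13 of 18 (72.2%, with 84.7% over all regions) and 9 of 12 (75%, with 92.7%). With equal lengths the incisor held 8 of 16 (50%, with 72.1%) and 5 of 12 (41.7%, with 78.5%), while the lower molar held 15 of 16 (93.8%, with 72.5%) and 12 of 12 (100%, with 67.9%) and the upper molar 14 of 16 (87.5%, with 72.8%) and 11 of 12 (91.7%, with 67.7%). Both replicates had a peak and the incisor had none at 2 sites, 1 in the cluster at 363 to 398 kb and 1 at 619 kb, chr5:29085934-29086640, where the incisor was the only library without a peak. Percentiles there were 68.8 and 48.0 in ectoderm, 47.1 and 14.4 in the sorted cells, 64.2 in the lower molar and 70.1 in the upper molar, and all 6 peaks stayed at equal list length.

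Sites shared by all 7 libraries numbered 6 of 71 (8.45%), against 14.3% of all merged regions, and 3 of 41 (7.32%) against 19.2% at equal list length. They were the Rnf32 and Lmbr1 starts, the site beside Shh, the site in Rbm33, and 2 in the far part of the desert. The stronger of the latter, chr5:28913177-28914785, lies 447 kb from Shh in Gm35688. It ranked at percentile 90.8 and 82.1 in ectoderm, 76.6 and 51.0 in the sorted cells, 54.8 in the incisor, 92.3 in the lower molar and 94.4 in the upper molar. The weaker, chr5:29030078-29030914, 563 kb away, ranked at 82.0 and 66.6 in ectoderm, 45.6 and 16.1 in the sorted cells, 24.0 in the incisor, 88.0 in the lower molar and 90.3 in the upper molar. In both, the ectoderm and molar peaks ranked above those of Sox2-positive replicate 2 and the incisor. The 3 that stayed in all 7 at equal list length were this stronger desert site and the starts of Rnf32 and Lmbr1.

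**Figure D4:**
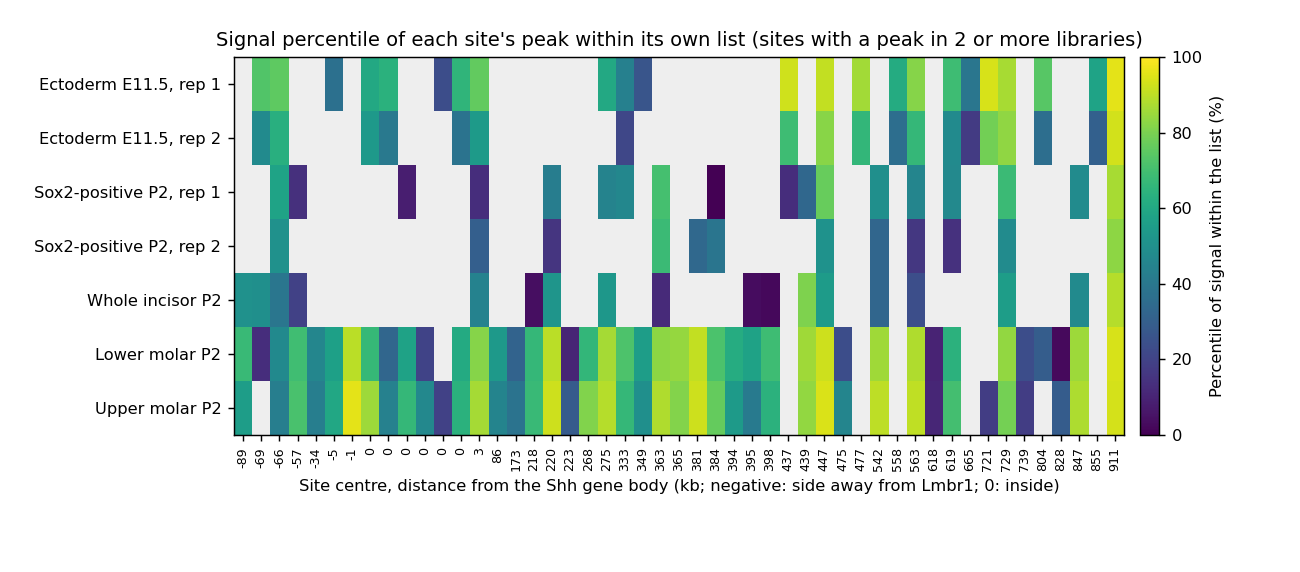
Percentile of signal within its own list for each of the 49 sites with a peak in 2 or more libraries, in order of distance from the Shh gene body in kb; pale grey marks no peak. The molar rows are filled over most of the desert up to 398 kb, where the ectoderm rows are mostly empty. Sites of 1 library are left out, and with them ectoderm replicate 1 had 10 desert sites nearer than 400 kb. All 7 rows are filled at 6 sites, among them those at 447 and 911 kb.

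Rnf32 and Lmbr1 differed from Shh in having a peak at their start in every library. The Rnf32 site, chr5:29195308-29196601, ranked at percentile 86.9 and 83.3 in ectoderm, 68.3 and 48.2 in the sorted cells, 55.5 in the incisor, 83.8 in the lower molar and 79.1 in the upper molar. The Lmbr1 site, chr5:29377173-29379086, ranked at 95.9 and 93.2 in ectoderm, 87.0 and 83.1 in the sorted cells, 88.9 in the incisor, 94.1 in the lower molar and 93.6 in the upper molar, the highest mean rank of the sites found in all 7 libraries. This last site reaches 0.665 kb past the end of the interval, and the next merged region lies 9.71 kb outside it. On the other edge the first site lies 11.0 kb inside and the last region outside lies 4.34 kb away.

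Inside the 2 genes, each site away from the starts was found in 1 to 4 libraries. Rnf32 held 2 sites besides its start, 1 of both molars and 1 of ectoderm replicate 1 alone. Lmbr1 held 10 besides its start, of which 6 were in ectoderm replicate 1 alone. The Lmbr1 site with the highest ranks away from the start was chr5:29313840-29314887, 847 kb from Shh, which had no peak in ectoderm or in Sox2-positive replicate 2. It ranked at percentile 48.4 in Sox2-positive replicate 1, 47.9 in the incisor, 85.3 in the lower molar and 87.5 in the upper molar, and all 4 peaks stayed at equal list length. This site was chosen after its values were seen. The ectoderm sites of Lmbr1 were chr5:29270442-29271291, at 73.9 and 36.0 in ectoderm with 29.4 in the lower molar, and chr5:29321827-29322406, at 58.1 and 30.6 with no peak elsewhere. At equal list length the former lacked ectoderm replicate 2, and the latter was lost in both ectoderm replicates.

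Genes that make, release, receive or relay hedgehog signals were looked at in the same way. Of 16 such genes, 10 had a peak summit within 1 kb of a start in all 7 libraries, among them Smo, which encodes the signal transducer Smoothened, Gli2 and Gli3, which encode transcription factors of the pathway, and Sufu, which encodes an inhibitor of GLI proteins. By library the count was 14 and 13 in ectoderm, 12 and 12 in the sorted cells, 12 in the incisor, 13 in the lower molar and 14 in the upper molar. Of all protein-coding genes, 52.5% had such a peak in all 7 libraries. With 38000 peaks per list, 9 of the 16 had it in all 7, with 47.3% of all genes, and the counts by library were 13 and 12, 12 and 12, 10, 11 and 11 in the same order. Over all protein-coding genes with a listed start, 56.3% to 64.7% had such a peak, depending on the library. Ptch1, which encodes the receptor Patched and is itself a target of the pathway, had one in 6 libraries and not in the incisor. Ihh, which encodes a related ligand, and Cdon, which encodes a co-receptor, had none in any library. Scube2, which encodes a protein that aids release of the ligand, had one in both ectoderm, the incisor and both molar libraries, and in ectoderm alone at equal list length. Hhip, which encodes a protein that binds the ligand at the cell surface, had one in all 7 libraries and in the 4 ectoderm and Sox2-positive libraries at equal list length. With a window of 500 bp, Ptch1 and Boc had a peak in 0 libraries, Gli1 in 1 and Hhat in 3. At that window 8 of the 16 genes had a peak in all 7, with 47.6% of all genes. Widened to 2.5 kb, the window held a peak at Ptch1 and Gli1 in all 7 libraries, the incisor included. Cdon then had one in 3 libraries and Ihh still in 0, so these calls depend on the window.

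**Figure D5:**
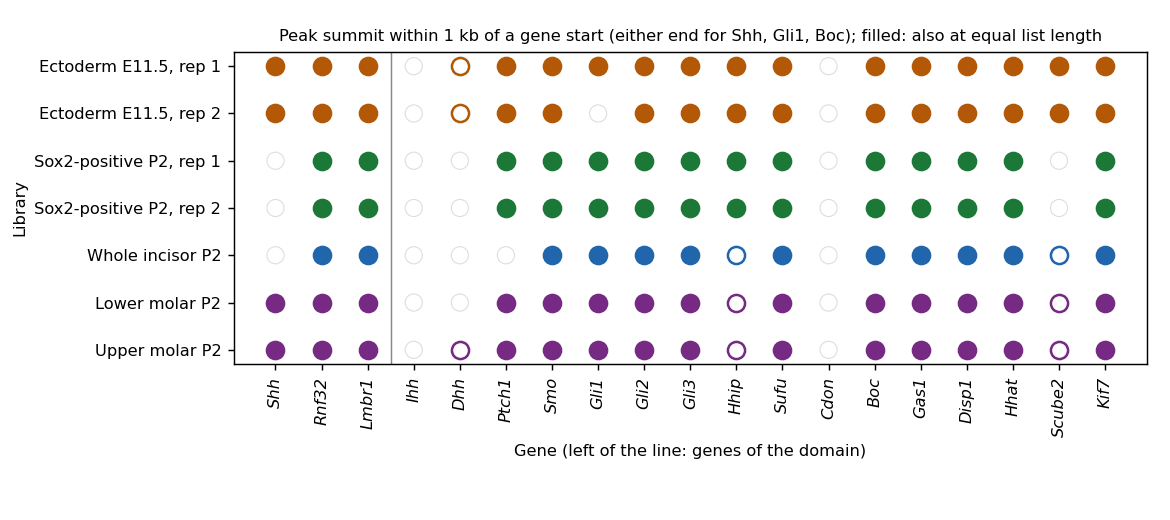
Genes (columns) with a peak summit within 1 kb of their start in each library (rows); filled circles were also present at equal list length, hollow coloured circles in the full list only, and pale circles mark no peak. Shh has a circle in the ectoderm and molar rows only, while Rnf32, Lmbr1 and 10 of the 16 hedgehog pathway genes have 1 in every row.

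Marker genes were used to check the labels. Of the 11 epithelial genes, 9 and 10 had a start peak in ectoderm and 10 and 9 in Sox2-positive cells. The counts were the same at equal list length, and over all protein-coding genes the full-list shares were 64.7% and 62.4% in ectoderm and 57.4% and 56.3% in the sorted cells. Of the 9 mesenchymal genes, 6 and 5 had one in ectoderm (4 and 4 at equal list length) and 8 and 8 in the sorted cells (8 and 8), where Pdgfra had a peak in both replicates and in neither ectoderm library. Of 4 ameloblast genes, 0 and 0 had one in ectoderm, 1 and 1 in the sorted cells, 2 in the incisor and 3 in each molar. Among them Ambn had one in all 5 P2 libraries and in neither ectoderm library, and Amelx had one in 0 libraries. Of 3 odontoblast genes, 0 and 0 had one in ectoderm, 1 and 2 in the sorted cells, 3 in the incisor, 1 in the lower molar and 2 in the upper molar. Over all protein-coding genes the shares were 59.3% in the incisor and 60.3% and 60.4% in the molars. Start peaks show access and not expression, and the part of other cells in the sorted libraries was not tested.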

How the data were processed

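Sample titles gave the groups and replicate numbers. What the authors deposited are narrowPeak lists, 1 per library, called with Genrich on mm10, per the submitters' processing notes, which also name FastQC, Trimmomatic, Bowtie2 and deepTools. Versions, options, read filters and the transposase offset are not given in the sources used here. The deposited signal of a peak is the caller's area under the curve, at least 200.0 in every list, and the deposited −log10 p is the caller's. Neither was scaled between libraries, so both served only to rank peaks within a list. Lists hold no read counts, so no count model was used.

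Peaks on chromosomes 1 to 19, X and Y were joined over all 7 libraries where they shared at least 1 bp. A percentile is the share of a list's peaks with a signal at or below that of the site's strongest peak. Distances run from the Shh gene body to a site's centre. Genes came from RefSeq (GRCm38.p6). Start sites came from a promoter table of the same build, and either gene end was used for Shh, Gli1 and Boc, and for some marker genes, Cdh1 and Trp63 among them. 1 gene of the hedgehog list is not reported here. The lowest −log10 p kept at equal list length was 2.94 to 4.79. Sites described singly were those at a start or end of a member gene, the 3 with the highest mean percentile in each pattern, the farthest desert site of each pattern and the nearest to Shh. Any other site named, those inside Shh included, was chosen after its values were seen. The members, lists and patterns were chosen with earlier results of these data known. Joining and patterns were tested on made-up peaks with known answers. Python 3.11.15, pandas 2.3.3 and scipy 1.17.1 were used.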

Additional observations from a re-analysis of the deposited data

How the results depend on the processing

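Read depth was unknown and list length varied, which limits every count. With 38000 peaks per list by −log10 p, there were 3 sites in all 7 libraries, 5 of ectoderm without Sox2-positive cells, 1 of ectoderm and molars alone and 1 of all P2 libraries alone. Taking 38000 by signal gave 1 incisor site without the molars and 1 P2 site. The stronger 50% of each list gave 2 shared, 5 ectoderm, 1 Sox2-positive and 0 P2 sites. Requiring 50% cover of a site gave 1 Sox2-positive, 1 P2 and 1 ectoderm-and-molar site, and windows of 200 bp around summits or joining over 200 bp left 1 of the latter. The desert alone held 3 shared, 4 ectoderm, 13 molar-without-incisor and 0 ectoderm-and-molar sites, and reversed the difference in peaks per 10000 (−0.243). Leaving out a replicate gave 10 to 30 ectoderm, 4 to 8 Sox2-positive, 3 to 5 ectoderm-and-molar and 3 to 6 P2 sites, and a difference in peaks per 10000 of 0.0710 to 1.22. Leaving out a molar, an alternative chosen after seeing the data, gave 0 to 1 incisor sites. Under the other settings the molar-without-incisor count was 18 to 29. The causes were not tested. No paired analysis was possible because the results come from peak lists, and the labels tie no replicate numbers to shared animals.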
